A study of Homo sapiens with 24 samples.

Results

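The genes described here are those of apelin receptor signalling: APELA and APLN, which encode the 2 peptide ligands, and APLNR, which encodes their receptor. They were taken by symbol from the 57820 genes of the table, and all 3 were measured. The 3 genes were chosen by the change of their measured levels with hour. That change is given for them as a description with no test. Genes of the other lists were also tested for change with hour, while tests of the 3 genes are confined to the difference between genotypes. The interaction tests ask how that difference changed since 0 h. They are built from the changes with hour that chose the genes, so their p-values are a description only. Messenger RNA was sequenced from HUES6, an established human embryonic stem cell line, as wild type (WT) and as a knockout (KO) of RBPMS, which encodes a protein that binds RNA. Cells of each genotype were taken undifferentiated in FTDA medium (0 h) and after 3, 6 and 48 h of mesoderm induction with 1.5 ng/ml BMP4 and 1.5 µM CHIR, an inhibitor of GSK3. Each of the 8 groups holds 3 libraries (24 in all), and KO libraries share line, medium and induction with WT. The labels do not say whether the KO is 1 clone or several, and do not name separate cultures behind the libraries, so p-values measure the spread between these libraries, which may be technical.

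APELA (also called ELABELA or Toddler) and apelin are short secreted peptides cut from longer precursors, and both bind the same receptor, a class A G protein-coupled receptor that signals through inhibitory G proteins and is desensitised by arrestins. In zebrafish gastrulation the APELA signal is needed for normal movement of mesendoderm cells and for heart formation, and in human cultures APLNR is used as a surface marker of early mesoderm. Undifferentiated human embryonic stem cells are known to make APELA while holding little of the receptor, and APLN is known from endothelium and as a gene induced by hypoxia.

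The coding sequences of the ligands are shown because both mature peptides lie at the end of a short reading frame and both are read from long messengers. APELA (ENSG00000248329) lies on chromosome 4, positions 164877004 to 164898965, plus strand. APLN (ENSG00000171388) lies on chromosome X, positions 129645259 to 129654937, minus strand. Both are from GENCODE 29 on GRCh38, and the sequences were read from its transcripts APELA-202 and APLN-201. Capitals mark the codons of the mature peptides: the last 32 codons of APELA and the last 13 of APLN (apelin-13), before the stop codon.
APELA coding sequence: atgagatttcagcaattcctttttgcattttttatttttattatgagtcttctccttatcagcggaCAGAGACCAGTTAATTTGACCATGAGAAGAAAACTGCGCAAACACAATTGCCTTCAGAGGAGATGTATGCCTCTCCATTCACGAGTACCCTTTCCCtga
APLN coding sequence: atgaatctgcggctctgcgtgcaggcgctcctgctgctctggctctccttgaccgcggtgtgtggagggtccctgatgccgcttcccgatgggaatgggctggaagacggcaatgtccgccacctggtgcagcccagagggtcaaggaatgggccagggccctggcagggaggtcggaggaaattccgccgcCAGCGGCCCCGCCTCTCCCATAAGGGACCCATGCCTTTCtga
The APELA frame has 54 codons and that of APLN 77, in 2 coding exons each. Pairs of adjacent lysine or arginine codons, the kind of site that proprotein convertases cut, numbered 4 in APELA, all of them inside the marked peptide, and 3 in APLN, the last starting at codon 63, just before the marked peptide. Coding bases with the stop codon made up 6.34% of the 2602 bases of APELA-202 and 7.3% of the 3205 bases of APLN-201, against 31.7% of the 3609 bases of APLNR-202, so most positions a read of either ligand can come from are untranslated. APELA-202 held 99.2% of the APELA counts in the deposited transcript table. By library, the counts of all APELA transcripts came to 36.41% to 62.2% of the gene's reads. The 99.2% is thus a share of those counts and not of all APELA reads. APLNR (ENSG00000134817) lies on chromosome 11, positions 57233577 to 57237314, minus strand, and the 380 codons of APLNR-202 lie in 1 exon.

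Bases just upstream of the ligand genes are shown because the levels of the 2 ligands ran in opposite directions at 48 h. They come from a RefSeq table on GRCh38.p14, in which 2 of the 3 genes were matched, and stop before the outermost start that RefSeq or GENCODE 29 gives: chr4:164876928-164877003 (plus strand, 76 bases) for APELA and chrX:129654957-129655206 (minus strand, 250 bases) for APLN. Capitals mark motif matches.
APELA upstream: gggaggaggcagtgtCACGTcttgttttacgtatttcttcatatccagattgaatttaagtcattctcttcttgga
APLN upstream: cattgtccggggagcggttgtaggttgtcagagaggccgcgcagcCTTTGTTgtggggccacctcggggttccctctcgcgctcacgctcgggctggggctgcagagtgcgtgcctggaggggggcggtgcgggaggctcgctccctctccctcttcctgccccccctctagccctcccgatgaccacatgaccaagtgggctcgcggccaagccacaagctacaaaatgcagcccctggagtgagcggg
The motifs searched on both strands were the hypoxia response core ACGTG, the TCF/LEF form CTTTGAT, its variant CTTTGAA, its further variant CTTTGTT, the octamer ATGCAAAT, a T-box half-site GGTGTGA, FOXH1 as TGTGNATT and GATA as AGATAA. They were searched in windows of 300 bases reaching 250 before and 50 after the RefSeq start. The APELA window held ACGTG once, on the opposite strand, beginning at -235 from the RefSeq start. That start (position 164877178) lies inside APELA-202, which begins at 164877004. Only the 76 bases shown, of the 300 searched, thus lie before both starts, and the match is nearer the start of APELA-202. The APLN window held CTTTGTT once, on the gene's strand, at -205. Over 35116 RefSeq windows of that length, 21.4% held ACGTG and 5.2% held CTTTGTT. No match overlapped another, and a match is a description of letters only.

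The libraries held 29896358 to 50451908 reads, recovered from the CPM values of the gene table (reads scaled to the library total), and 3 reads, the limit that a count of 0 allows, correspond to 0.0595 to 0.10 CPM, which covers counting error only. RBPMS mRNA was 121 to 155 CPM in WT and 153 to 158 CPM in KO at 0 h, so its level does not check the genotype label. The pluripotency factor POU5F1 averaged 1582 to 2225 CPM over the 8 groups. Library 1 of WT at 0 h, library 3 of KO at 3 h and library 3 of WT at 48 h stood apart from their mates (Pearson r of 0.975 to 0.978, 0.988 to 0.989 and 0.991 across genes, with 0.996, 0.996 and 0.997 between the mates), and results whose call or size turns on them are also given without them.

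APELA was the abundant ligand from 0 to 6 h and was nearly gone at 48 h. At 0 h the WT libraries read 218, 163 and 180 CPM and the KO libraries 89.1, 86.6 and 85.7 CPM. All 3 KO libraries lay below all 3 WT libraries, and WT was on average 2.15 times KO. At 3 h WT gave 147, 143 and 154 CPM and KO 142, 151 and 94.9 CPM, which overlap, the low KO value being that of library 3. At 6 h WT gave 210, 204 and 210 CPM and KO 247, 244 and 268 CPM, with every KO library above every WT library. At 48 h WT fell to 6.75, 4.75 and 4.68 CPM and KO to 8.72, 10.5 and 8.88 CPM, again with KO above WT in all libraries. Bulk libraries cannot tell fewer cells of a type from less RNA per cell, here or below.

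Against 0 h the mean APELA level at 48 h was 34.6 times lower in WT and 9.31 times lower in KO, which started from the lower level. Between 0 and 6 h the WT mean changed little (186.9 ± 28 and 208 ± 3.5 CPM, SD, n = 3 each, overlapping), while the KO mean went from 87.1 ± 1.80 to 252.7 ± 13 CPM, 2.90 times as high. By mean level the groups ran KO 6 h, WT 6 h, WT 0 h, WT 3 h, KO 3 h, KO 0 h, KO 48 h and WT 48 h, and neighbours overlapped only for WT 6 h with WT 0 h and for WT 3 h with KO 3 h.

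**Figure D1:**
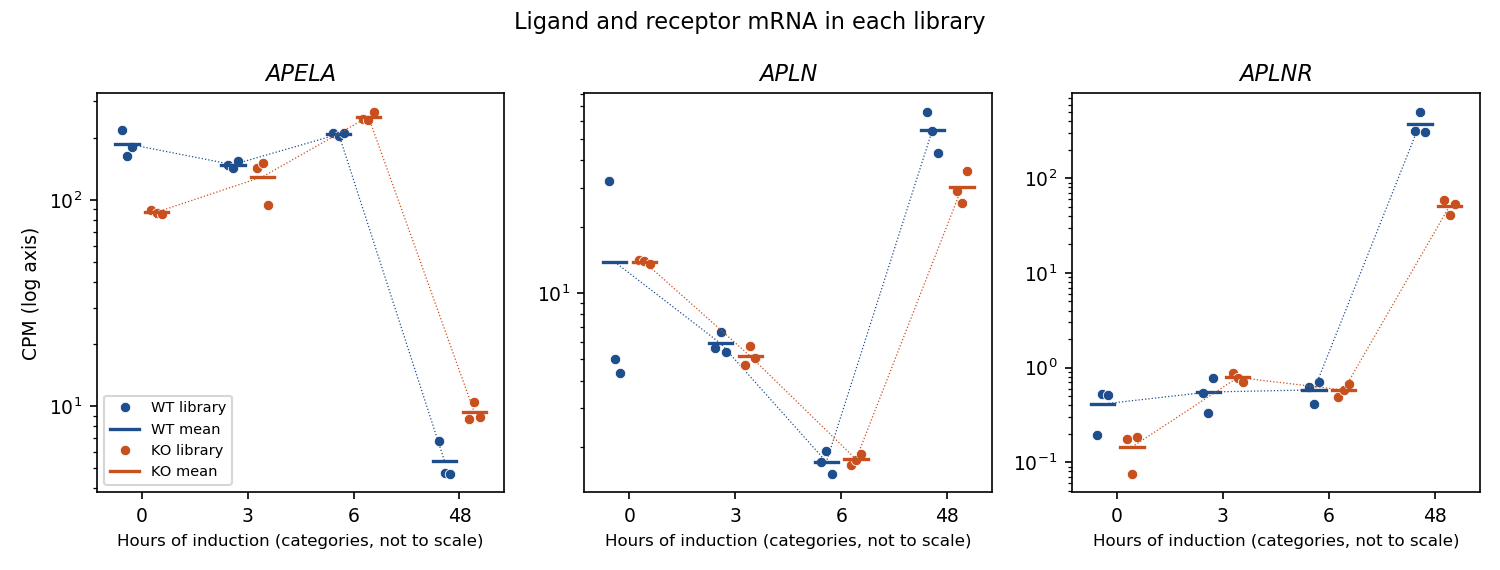
CPM (log axis) of APELA, APLN and APLNR in each of 24 libraries by hour of induction; points are libraries, bars group means (n = 3) and dotted lines join means. APELA is lowest at 48 h (4.68 to 10.5 CPM), where APLN in WT (43.0 to 66.3 CPM) and APLNR in both genotypes (41.0 to 505 CPM) are highest.

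The KO minus WT difference of APELA reversed in sign over the time course. It was -1.05 ± 0.14 at 0 h (log2, ± SE; limma, adjusted p = 3.18e-05) and 0.82 ± 0.14 at 48 h (limma, adjusted p = 0.000292). Of 19835 genes tested, 15.4% were called at 0 h and 12.3% at 48 h at an adjusted p under 0.05, the threshold used throughout. The differences at 3 h (-0.23, 95% interval -0.53 to 0.06; limma, adjusted p = 0.45) and 6 h (0.27, -0.03 to 0.57; adjusted p = 0.552) did not pass, at hours where 2.73% and 2.52% of genes were called. Without library 3 of KO the difference at 3 h was -0.02. The difference at 6 h passed in a fit of only the groups compared (limma, adjusted p = 0.000157) and without the 3 libraries that stand apart (limma, 0.28, adjusted p = 0.0181). The change of this difference since 0 h was itself called at each later hour: 0.82 ± 0.20 at 3 h (limma interaction, adjusted p = 0.0114), 1.33 ± 0.20 at 6 h (adjusted p = 0.000123) and 1.87 ± 0.20 at 48 h (adjusted p = 2.45e-06). Among all genes tested the interaction was called for 9.07% at 3 h, 8.49% at 6 h and 8% at 48 h. For APELA it did not pass at 3 h in a fit of only the groups compared (limma, adjusted p = 0.0718).

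APLN, the second ligand, was low at 6 h and highest at 48 h. At 0 h the WT libraries gave 32.1, 5.04 and 4.35 CPM and the KO libraries 14.1, 14 and 13.5 CPM. Library 1 of WT was 6.83 times the mean of its mates and the other two lay below all KO libraries, so the groups overlap although the KO values are close together. At 3 h WT gave 5.62, 6.68 and 5.42 CPM and KO 4.73, 5.74 and 5.06 CPM. At 6 h WT gave 1.72, 1.92 and 1.51 CPM and KO 1.66, 1.75 and 1.87 CPM. Both pairs of groups overlap, and 6 h is the lowest hour in both genotypes. At 48 h WT gave 66.3, 54.4 and 43.0 CPM and KO 28.9, 25.5 and 35.8 CPM, with every KO library below every WT library.

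From 6 to 48 h the mean APLN level was 31.8 times higher in WT and 17 times higher in KO. Against 0 h the 48 h mean was 3.95 times as high in WT and 2.18 times in KO. Without library 1 of WT at 0 h the log2 ratio of 48 h to 0 h in WT was 3.54, against 1.98 with it. By mean level the groups ran WT 48 h, KO 48 h, WT 0 h, KO 0 h, WT 3 h, KO 3 h, KO 6 h and WT 6 h, and the only neighbours without overlap were the 48 h pair, KO 0 h with WT 3 h, and KO 3 h with KO 6 h.

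No KO minus WT difference of APLN passed with all libraries, and none of the 3 interactions did. At 0 h the difference was 0.64 (log2, 95% interval -0.20 to 1.48; limma, adjusted p = 0.313). Without library 1 of WT it was 1.54 (limma, adjusted p = 8.84e-08), and the KO mean was 2.94 times that of the remaining WT libraries. Without that library the interactions also passed (limma: -1.73 at 3 h, -1.51 at 6 h and -2.35 at 48 h; adjusted p = 1.43e-06, 9.09e-06 and 2.28e-08), against -0.83, -0.61 and -1.45 with it. At 48 h the difference was -0.81 (95% interval -1.65 to 0.04; limma, adjusted p = 0.237), WT being 1.81 times KO. It passed in a fit of only the 48 h groups (limma, -0.81, adjusted p = 0.0112) and without the 3 libraries that stand apart (limma, -0.96, adjusted p = 2.98e-06). At 3 h (-0.19, 95% interval -1.03 to 0.65) and 6 h (0.03, -0.81 to 0.87) the intervals allow differences in either direction. The fit shares 1 estimate of spread over all groups, so the SE was 0.406 at every hour. The SD of APLN was 114% of the mean in WT at 0 h, against 5.95% to 21.3% in the 3, 6 and 48 h groups. The intervals at those hours are therefore widened by the WT 0 h libraries.

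The summed level of genes induced by hypoxia-inducible factor moved with APLN at 0 h, though not in proportion and not for every gene. The summed level of 20 such genes was 10881 CPM in library 1 of WT, where APLN was 32.1 CPM, and 3824 and 4711 CPM in the other WT libraries, where it was 5.04 and 4.35 CPM. In KO at 0 h the sums were 10495, 10366 and 10261 CPM, and APLN was 14.1, 14 and 13.5 CPM. At a similar sum, APLN in library 1 of WT was thus 2.32 times the KO mean. In library 1 of WT, 14 of the 20 genes lay above both mates and 5 below both. In KO against WT at 0 h, 16 of the 20 were called higher and none lower, where 15.4% of all genes were called (limma, median log2 difference 0.86, against -0.01 over all genes tested). Without library 1 of WT these were 18 higher and none lower (median 1.36), when 32.9% of all genes tested were called. BHLHE40, a circadian and hypoxia-induced repressor, gave 85.6 ± 7.29 CPM in KO against 12.8 ± 4.0 in WT (limma, log2 difference 2.79, adjusted p = 1.36e-10), and PFKFB4, a regulator of glycolysis, gave 124 ± 4.73 against 44.2 ± 14.2 (limma, 1.57, adjusted p = 2.60e-07). ANKRD37 gave 7.98 ± 0.68 CPM in KO against 2.65 ± 0.14 in WT (limma, 1.53, adjusted p = 6.82e-06). By these means and SDs, library 1 of WT lay below KO for BHLHE40, PFKFB4 and ANKRD37, although its APLN lay above KO. The sums did not order APLN across hours: at 48 h they were 8458 to 9067 CPM in WT and 9970 to 10472 CPM in KO, where APLN was higher in WT. The part of these genes in the APLN result was not tested.

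**Figure D2:**
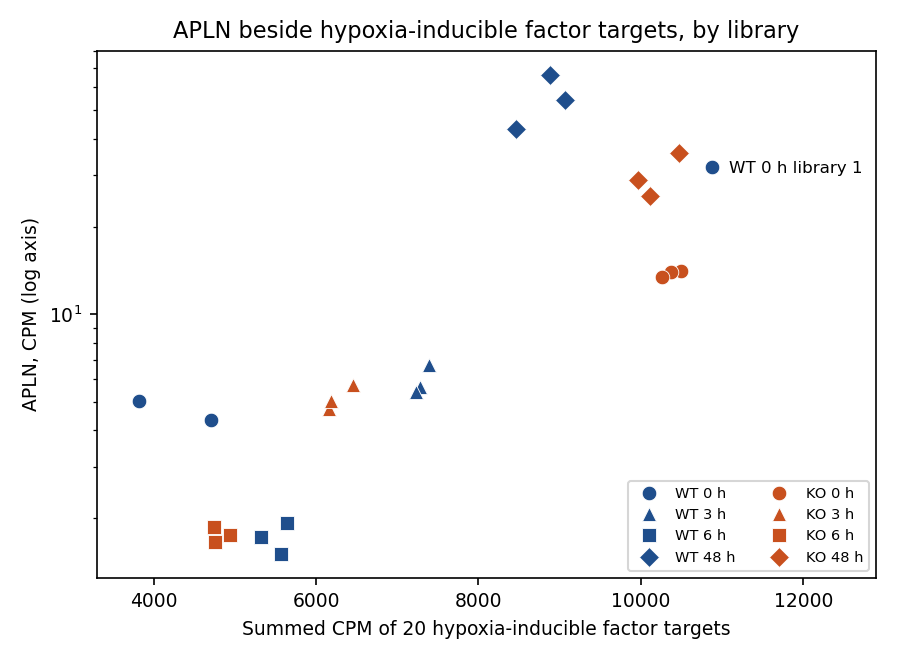
APLN (CPM, log axis) against the summed CPM of 20 hypoxia-inducible factor targets in each library; colour is genotype and marker shape is hour. Library 1 of WT at 0 h lies at 10881 and 32.1 CPM, and its mates at 3824 and 4711 CPM with APLN at 5.04 and 4.35 CPM. The KO 0 h libraries lie at 10261 to 10495 CPM with APLN at 13.5 to 14.1 CPM. The WT 48 h libraries lie higher in APLN (43.0 to 66.3 CPM) at sums of 8458 to 9067 CPM.

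APLNR was below 1 CPM in every library until 6 h and abundant at 48 h. At 0 h the WT libraries gave 0.194, 0.524 and 0.517 CPM (9, 21 and 19 reads) and the KO libraries 0.177, 0.0749 and 0.184 CPM (7, 3 and 7 reads). The second KO library sits at the limit that a count of 0 allows, and all KO libraries lie below all WT libraries. At 3 h WT gave 0.543, 0.335 and 0.778 CPM and KO 0.874, 0.772 and 0.713 CPM. At 6 h WT gave 0.625, 0.416 and 0.705 CPM and KO 0.492, 0.578 and 0.669 CPM. The genotypes overlap at both hours, on 14 to 34 reads a library. At 48 h WT gave 316, 505 and 310 CPM and KO 58.4, 41.0 and 53.2 CPM, so the lowest WT library is far above the highest KO library.

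Means at 48 h were 377 ± 111 CPM in WT and 50.9 ± 8.91 CPM in KO (SD, n = 3 each). They were 648 times the 6 h mean in WT and 87.8 times in KO. By mean level the groups ran WT 48 h, KO 48 h, KO 3 h, WT 6 h, KO 6 h, WT 3 h, WT 0 h and KO 0 h. The 4 groups from WT 6 h to WT 0 h overlap one after another, whereas both 48 h groups, KO 3 h and KO 0 h do not overlap the neighbours named beside them.

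At 48 h KO was lower than WT by the largest margin of the 3 genes. The difference was -2.82 ± 0.23 (log2, 95% interval -3.31 to -2.33; limma, adjusted p = 1.26e-08), WT being 7.4 times KO, and it ranked 20 from the lowest among 19835 genes. With each library of these groups left out in turn it was -2.94 to -2.60. At 0 h the difference was -0.68 ± 0.23 (limma, adjusted p = 0.0541). It passed with CPM as deposited (limma, adjusted p = 0.0439), with a pseudocount of 0.1 (limma, adjusted p = 0.0249) and by DESeq2 (adjusted p = 0.0146), and not by edgeR; over 10 alternatives the adjusted p ran from 0.000811 to 0.268. Without library 1 of WT it was -0.93 (limma, adjusted p = 0.00299). At 3 h (0.40, 95% interval -0.09 to 0.89) and 6 h (0.00, -0.48 to 0.49) no difference passed, and with all libraries and groups in the limma fit none of the 3 genes had an unadjusted p under 0.05 at these hours.

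The interaction of APLNR was -2.14 ± 0.33 at 48 h (limma, adjusted p = 0.000189), a larger deficit of KO than at 0 h. On recovered reads it was -1.43 by edgeR (adjusted p = 0.199) and -1.42 by DESeq2 (adjusted p = 0.0516), which ends the call, and the 0 h libraries hold 3 to 21 APLNR reads. The interaction at 3 h was 1.08 ± 0.33 (limma, adjusted p = 0.0438) and was lost in 9 of 12 fits with 1 library left out, namely each of the KO 0 h libraries, WT 0 h libraries 2 and 3, and libraries 1 and 2 of both 3 h groups. In those fits it was 0.87 to 1.15. At 6 h it was 0.68 (limma, adjusted p = 0.227), and 0.94 without library 1 of WT at 0 h (adjusted p = 0.0284).

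**Figure D3:**
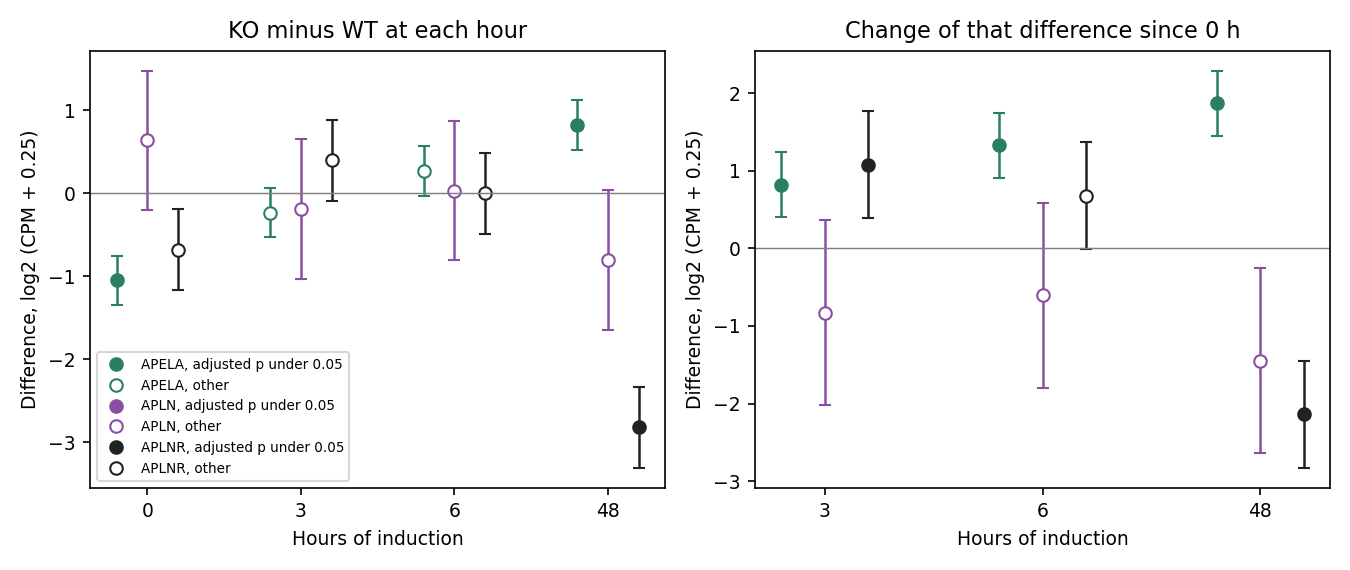
KO minus WT difference at each hour (left) and its change since 0 h (right), in log2 of TMM-scaled CPM + 0.25, with 95% intervals from limma over 24 libraries; filled points have an adjusted p under 0.05. APELA runs from -1.05 at 0 h to 0.82 at 48 h, APLNR reaches -2.82 at 48 h, and no APLN point is filled.

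Per kilobase of exon, which allows levels of different genes to be compared, the ligand and the receptor exchanged places between 6 and 48 h. In WT at 0 h the mean levels were 60.5 CPM per kb for APELA, 4.31 for APLN and 0.110 for APLNR. In WT at 48 h they were 1.75, 17 and 101 CPM per kb, and in KO at 48 h 3.03, 9.38 and 13.6 CPM per kb. APLN made up 12.4%, 2.90% and 2.27% of the ligand mRNA in the WT libraries at 0 h and 13.2%, 13.4% and 13.2% in KO, library 1 of WT being close to the KO values. At 3 h the share was 3.29% to 4.31% in WT and 3.10% to 4.88% in KO. At 6 h APLN was below 1 in 100 of the ligand mRNA in all 6 libraries (0.646% to 0.900%).

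At 48 h APLN was the main ligand in every library, at 90.4%, 91.7% and 89.9% in WT and 76.1%, 70.2% and 79.5% in KO, with no overlap. From 0 to 6 h ligand mRNA exceeded receptor mRNA by 169 to 1616 times per kb over the 18 libraries. At 48 h the ratio of receptor to summed ligands was 3.69, 7.30 and 5.55 in WT. In KO it was 1.32, 0.967 and 1.01. By these values the receptor exceeded the ligands in WT and was about level with them in KO. In the deposited transcript counts of KO at 48 h, APLNR-202 had 1432, 1295 and 1556 and APLN-201 1214, 1386 and 1754. APLN-201 is the shorter transcript, so in KO libraries 2 and 3 the receptor lay below APLN alone by those counts. With APELA-202 added (167, 253 and 212), it lay below the summed ligands per base in every KO library. In WT at 48 h APLNR-202 had 8569, 13247 and 6800 and APLN-201 3034, 2396 and 2084, a smaller excess than above. By library, APLN counts came to 105.2% to 123.3% of the gene's reads, and those of APLNR to as little as 48.39%. The balance in KO and the size of the excess in WT therefore depend on the counts used. Lengths are exon unions of GENCODE 29 (3089 bases for APELA, 3205 for APLN and 3738 for APLNR). The gene identifiers of the table carry other version numbers for all 3 genes, so the counted models may differ. With the longest transcript in place of the union the 48 h ratios were 3.76 to 7.45 in WT and 0.948 to 1.31 in KO. These ratios combine levels that chose the genes and were not tested.

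**Figure D4:**
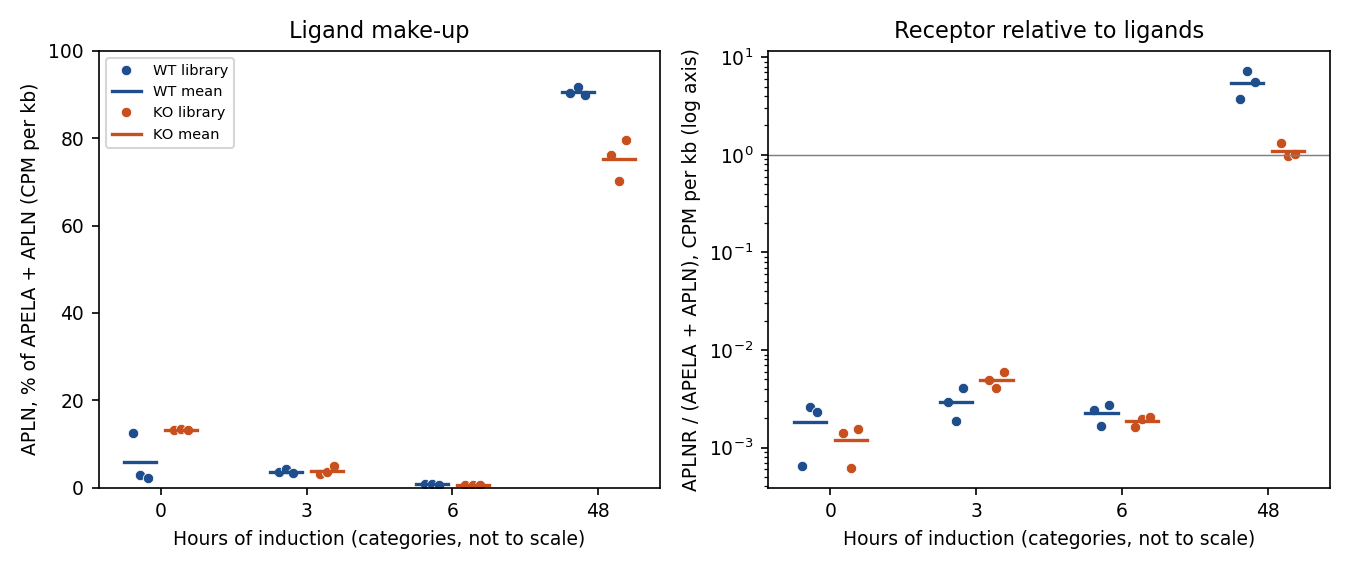
Left, APLN as a percentage of APELA plus APLN, in CPM per kb; right, APLNR divided by APELA plus APLN on a log axis, with a line at 1. Points are libraries and bars group means (n = 3): at 48 h APLN holds 89.9% to 91.7% in WT and 70.2% to 79.5% in KO, and the receptor ratio is 3.69 to 7.30 in WT and 0.967 to 1.32 in KO.

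Genes with the closest pattern to each of the 3 were ranked by Pearson r over the 24 libraries on the log2 scale, among 12295 genes. As the libraries share hours and genotypes, and the 48 h groups set most of the spread, r is a description. For APELA the highest were NRIP3, TDRP, PODXL, ATP8A2 and MPPE1 (r from 0.969 to 0.966) and the lowest COL13A1, PPP1R3B, PDHB, PCDH10 and CUX1 (-0.991 to -0.981). PODXL, a sialomucin abundant on pluripotent stem cells, went from 3286 CPM in WT at 0 h to 217 in WT and 438 in KO at 48 h, higher in KO as APELA was. COL13A1, a transmembrane collagen, ran the other way, from 6.46 CPM in WT at 0 h to 82.2 CPM in WT and 50.3 CPM in KO at 48 h. NRIP3, TDRP and ATP8A2 were also higher in KO at 48 h, and MPPE1 was not (7.77 CPM in WT, 7.70 in KO). At 0 h, where APELA was lower in KO, NRIP3 and TDRP were not lower. The genes were picked for likeness to APELA, so a shared order is no separate result. For APLN the highest were LRRC41, MPI, HAUS4, PLCB1 and CALCOCO1 (0.977 to 0.970) and the lowest DRAM1, NOL11, AP1S3, PRPF3 and NIBAN1 (-0.969 to -0.953).

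For APLNR the highest were AP3B2, DLC1, DKK1, ENSG00000232110 and SLIT2 (0.990 to 0.985) and the lowest SAMHD1, PODXL, MRAP2, SLC24A2 and SLC29A1 (-0.988 to -0.980). DKK1, a secreted inhibitor of WNT signalling, was 0.182 CPM in WT at 0 h and 48.6 CPM in WT against 10.9 CPM in KO at 48 h. SLIT2, a guidance ligand, was 96.5 CPM in WT and 48.7 CPM in KO at 48 h. DLC1, a RhoGAP, was 58.7 and 24.1 CPM. Among the 3 genes themselves r was -0.938 for APELA with APLNR, -0.867 for APELA with APLN and 0.726 for APLN with APLNR.

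The genes listed under peptide processing and clearance were all tested (19 of 19). Whether each of them acts on APELA or apelin was not tested. At 48 h against 0 h, 7 were called higher and 4 lower in WT, where 54.3% of all genes were called, and 6 and 5 in KO, where 54.6% were. PCSK1, a proprotein convertase, went from 2.91 ± 0.74 to 14.8 ± 1.46 CPM in WT (limma, log2 2.29, adjusted p = 1.76e-13). FURIN, a convertase of the same family, rose from 37.6 ± 1.81 to 62.6 ± 3.43 CPM in WT (limma, 0.75, adjusted p = 1.58e-05). MME, the peptidase neprilysin that degrades apelin, rose from 60.5 ± 4.12 to 106 ± 14.4 CPM in WT (limma, 0.83, adjusted p = 4.02e-08). DPP4, a dipeptidyl peptidase, fell from 5.35 ± 0.93 to 2.76 ± 0.37 CPM in WT (limma, -0.87, adjusted p = 6.64e-06), and was 4.11 ± 0.39 CPM in KO at 48 h, above WT (limma, 0.57, adjusted p = 0.00379). Between genotypes 1 was called higher and 2 lower in KO at 0 h (15.4% of all genes called), none at 3 h (2.73%), 1 higher at 6 h (2.52%), and 1 higher and 1 lower at 48 h (12.3%). Without the 3 libraries that stand apart the counts were 1 higher and 2 lower at 3 h (8.87%), 1 and 4 at 6 h (11.9%) and 2 and 6 at 48 h (23.7%). PCSK1 was 5.79 ± 0.14 CPM in KO at 0 h (limma, 0.99, adjusted p = 8.40e-06). MME was 68.7 ± 4.57 CPM in KO at 48 h, below WT (limma, -0.58, adjusted p = 5.04e-05).

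Of 24 genes for G protein and arrestin coupling, 12 were called higher and 7 lower in WT at 48 h against 0 h (54.3% of all genes called), and 11 and 6 in KO (54.6%). GNAI2, an inhibitory G protein subunit of the kind the receptor uses, rose from 106 ± 14.6 to 177 ± 11.8 CPM in WT (limma, 0.76, adjusted p = 4.49e-08). GRK5, a kinase that phosphorylates active receptors, went from 1.82 ± 0.26 to 8.53 ± 0.25 CPM (limma, 2.11, adjusted p = 8.21e-11), and ARRB1, an arrestin, from 129 ± 8.55 to 198 ± 17.7 CPM (limma, 0.64, adjusted p = 3.28e-08). Between genotypes at 48 h, 2 were called higher in KO and 1 lower, a share close to the 12.3% over all genes (median log2 difference 0.04, against 0.01). Without the 3 libraries that stand apart these were 5 and 6, where 23.7% of all genes were called. RGS4, which shortens G protein signals, was 6.18 ± 0.64 CPM in KO against 0.927 ± 0.16 in WT (limma, 2.48, adjusted p = 9.01e-09). GNAI1, another inhibitory subunit, was 29.1 ± 0.93 CPM in KO against 40.3 ± 7.45 in WT (limma, -0.41, adjusted p = 0.00656).

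Of 24 downstream kinases and effectors, 8 were called higher and 4 lower in WT at 48 h against 0 h (54.3% of all genes called) and 6 and 4 in KO (54.6%), or 9 and 8 in KO without the 3 libraries that stand apart (68.5%). KO against WT at 48 h gave 2 higher and 1 lower, a share close to the 12.3% over all genes, and 2 and 7 without the 3 libraries that stand apart (23.7%). PIK3CG, the PI3-kinase subunit activated by G proteins, was 2.27 ± 0.29 CPM in WT and 0.620 ± 0.05 in KO at 48 h (limma, -1.49, adjusted p = 3.38e-08). KLF4, a transcription factor, was 0.284 ± 0.11 and 0.920 ± 0.12 CPM (limma, 1.16, adjusted p = 0.000195). Among related receptors and other receptors of gastrulation with their ligands, 19 of 23 were tested, and 4 were called higher and 2 lower in KO at 48 h (12.3% of all genes called). CXCR4, the chemokine receptor that also guides mesendoderm cells, and is also an endoderm marker, went against APLNR at 48 h: KO had 42.5 ± 4.67 CPM and WT 10.6 ± 2.46 CPM (limma, 2.04, adjusted p = 1.16e-07). S1PR3, a sphingosine phosphate receptor, rose in WT from 7.42 ± 2.84 to 49.2 ± 8.03 CPM (limma, 2.76, adjusted p = 1.65e-11). EDNRB, an endothelin receptor, was 485 ± 3.96 CPM in KO and 211 ± 113 in WT at 0 h (limma, 1.36, adjusted p = 3.85e-05), and in WT at 0 h the summed list was 1.61 times higher in library 1 than in its mates.

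NODAL signalling, which drives mesendoderm formation, was tested in 16 of 18 genes. At 48 h against 0 h 10 were called higher and 4 lower in both WT (54.3% of all genes called) and KO (54.6%). NODAL itself was 5.35 ± 2.82 CPM in WT at 0 h and 217 ± 22.3 CPM at 48 h (limma, 5.45, adjusted p = 6.01e-15). In KO against WT at 48 h 5 were called higher and none lower (12.3% of all genes called), and 6 and 1 without the 3 libraries that stand apart (23.7%). The antagonist LEFTY1 was 49.4 ± 1.73 CPM in KO against 7.36 ± 1.00 in WT (limma, 2.75, adjusted p = 1.67e-06).

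Cell type markers moved with APLNR at 48 h. Of 20 mesoderm markers 17 were called higher and 1 lower in WT (limma, median log2 2.98, against 0.04 over all genes), 10 and 3 in KO (median 0.73, against 0.07), and 1 higher and 14 lower in KO against WT (median -1.25; 12.3% of all genes called). TBXT, the brachyury factor of primitive streak, was 246 ± 21.7 CPM in WT and 57.0 ± 3.92 in KO (limma, -2.06, adjusted p = 2.38e-10). The presomitic factor MSGN1 was 6.92 ± 2.36 and 0.266 ± 0.17 CPM (limma, -3.74, adjusted p = 3.64e-11), and EVX1 was 42.6 ± 7.32 and 3.38 ± 0.86 CPM (limma, -3.53, adjusted p = 1.82e-11). The summed mesoderm list was 2449.5 to 2843 CPM in WT and 1690.2 to 1893 CPM in KO. The counts at the earlier hours were 12 higher and 2 lower at 3 h in WT (55.7% of all genes called) and 11 and 4 in KO (65.7%), then 8 and 5 at 6 h in WT (62.4%) and 7 and 5 in KO (68.9%).

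APELA moved with the pluripotency markers at 48 h. Of 16 such genes 10 were called higher and none lower in KO against WT (limma, median log2 difference 0.57), where 12.3% of all genes were called, and without the 3 libraries that stand apart 11 were higher and 1 lower, where 23.7% were. SOX2 was 119.5 ± 17.2 CPM in KO and 43.0 ± 4.11 in WT (limma, 1.50, adjusted p = 6.81e-09), and NANOG 118 ± 3.44 and 49.5 ± 7.57 (limma, 1.30, adjusted p = 1.58e-08). The summed list was 7053 to 7639 CPM in WT and 9779 to 10120 CPM in KO. At 0 h, where APELA was lower in KO, 3 of the 16 were called higher and 1 lower (15.4% of all genes called). Without library 1 of WT they were 4 and 5 (32.9%).

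Markers of other cells that carry these genes were read beside them. Endothelial markers were measured for 15 of 16 genes and tested for 12, and KO against WT at 48 h gave 1 higher and 1 lower (12.3% of all genes called), or 4 and 1 without the 3 libraries that stand apart (23.7%). Their sum, of which KDR holds most, was 256 to 341 CPM in WT and 370.4 to 396 CPM in KO at 48 h. The defining endothelial cadherin CDH5 averaged 0.389 CPM in WT and 0.444 CPM in KO at 48 h, and ETV2, which specifies endothelium, 0.636 and 0.376 CPM. EMCN, CLDN5 and ROBO4 were below the filter, EMCN being 0 in all KO libraries at 48 h. Of 9 definitive endoderm markers tested, all 9 were called higher at 48 h against 0 h in both WT (54.3% of all genes called) and KO (54.6%). In KO against WT 3 were called higher and none lower (12.3%), with FOXA2 at 49.1 ± 6.38 CPM in KO and 19.9 ± 2.76 in WT (limma, 1.33, adjusted p = 2.96e-06). The summed endoderm list was 2292 to 2704 CPM in WT and 2681 to 3094 CPM in KO. CER1, which is also in the NODAL list, holds most of it (means of 2260 and 2539 CPM). Of 9 neuroectoderm and surface ectoderm markers tested, 3 were called higher and none lower in KO at 48 h (12.3% of all genes called), or 4 and 1 of 10 without the 3 libraries that stand apart (23.7%). They were led by the anterior factor SIX3 at 1.34 ± 0.46 against 0.297 ± 0.11 CPM (limma, 1.52, adjusted p = 2.66e-06). The part of these markers in the APELA and APLNR results was not tested.

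**Figure D5:**
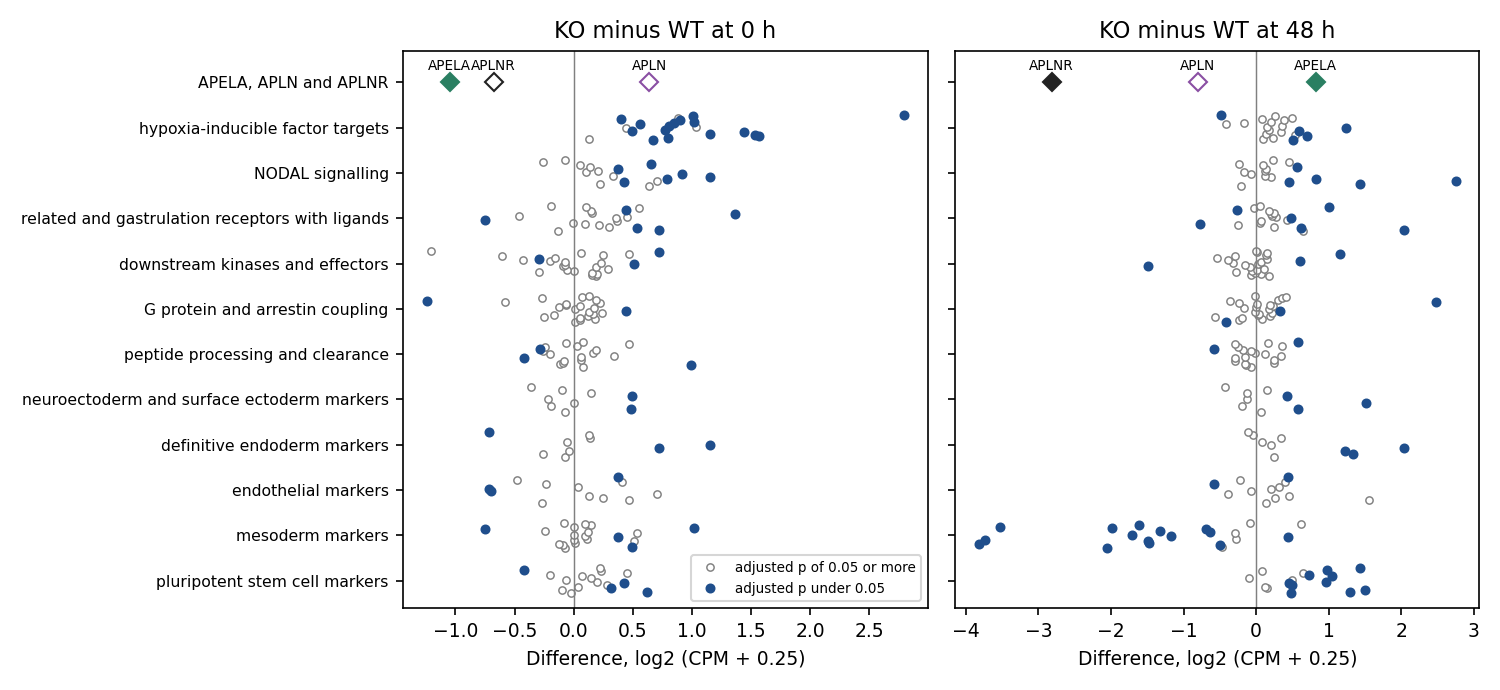
KO minus WT difference (log2 of TMM-scaled CPM + 0.25) of each tested gene by list at 0 h (left) and 48 h (right), with APELA, APLN and APLNR as diamonds on top; filled points have an adjusted p under 0.05 by limma. At 0 h 16 of 20 hypoxia-inducible factor targets are called higher in KO, and at 48 h APLNR (-2.82) lies on the side of the mesoderm markers, 14 of 20 of which are called lower, and APELA (0.82) on that of the pluripotency markers, 10 of 16 of which are called higher.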

How the data were processed

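Messenger RNA libraries (stranded TruSeq, per the labels' protocols) were made from 24 samples. The deposited gene table holds CPM, scaled by the authors to each library's total, for 57820 genes; the submitters' processing notes name hg38 and DESeq2. The aligner and the annotation release are not given in the sources used here. A second deposited table holds transcript counts with no normalization. It was used only for transcript shares, the check of the header and the comparison of APLNR with the ligands at 48 h. The table's header is shifted by 1 cell, and with the shift undone 24 of 24 libraries matched best a transcript column of their own group. CPM came out as whole reads within 0.1 read for 100% of values. Symbols were found for 89.9% of the gene table's identifiers in a reference list of gene names. Lengths and positions were taken from GENCODE 29, which held 51.6% of the identifiers in the same version and 90.5% in any version.

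CPM divided by TMM factors + 0.25 was taken to log2 and fitted with limma (3.58.1, with trend, R 4.3.3) over all 8 groups with no covariate, on 19835 genes kept by filterByExpr (10 reads, 15 in total). Tests were two-sided, with Benjamini-Hochberg adjustment over all genes within each of 13 comparisons. Fold changes on this scale understate those of low genes. In data simulated for KO against WT at 48 h, on 19835 genes, limma found 98% of 2-fold and 100% of 4-fold changes, with 8 false calls. The simulation gave all genes the same dispersion, had no library that stands apart, and changed only genes with many reads. It checks the code and does not give the share of real changes found, least for genes as variable as APLN or as low as early APLNR. Alternatives were edgeR (4.0.16) and DESeq2 (1.42.0) on recovered reads, RLE factors, CPM as deposited, pseudocounts of 0.1 and 1, other filters, only the groups compared, a replicate block and each library left out. The members and gene lists were chosen with earlier results of these data known. In each of 11 lists, named genes were up to 4 with the smallest adjusted p in WT at 48 h and up to 3 called between genotypes at each hour, of which a part is printed, and 5 genes at each end of the likeness ranking; POU5F1, CDH5, ETV2, EMCN, CLDN5 and ROBO4 were named after their values were seen.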

Additional observations from a re-analysis of the deposited data

Results flagged for a closer look

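In 5 cases the KO minus WT difference at a later hour differed from that at 0 h by the interaction test in limma with all libraries. That test is built from the changes with hour by which the genes were chosen. For APELA the change since 0 h was 0.821 on the log2 scale at 3 h, 1.33 at 6 h and 1.87 at 48 h, from a KO level below WT to one above it. For APLNR it was 1.08 at 3 h, on 3 to 34 reads a library, and -2.14 at 48 h. The calls were lost in some other settings for APELA at 3 h (only the groups compared, adjusted p = 0.0718) and for APLNR at 3 h (9 of 12 fits with 1 library left out) and 48 h (edgeR, adjusted p = 0.199, and DESeq2, adjusted p = 0.0516).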

How the results depend on the processing

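Over alternatives with every library kept or the 3 that stand apart left out (chosen after seeing the data), no result changed sign past the threshold. The APLNR difference at 0 h passed with CPM as deposited (-0.71), DESeq2 (-1.44), a filter of 5 CPM (-0.68, which APLNR meets only through its 48 h levels), a pseudocount of 0.1 (-0.98) and without the 3 libraries (-0.94). The APLNR interaction at 3 h was lost with edgeR (1.92), no filter (1.08), only the groups compared (1.08) and a pseudocount of 1 (0.49), and that at 48 h with edgeR (-1.43) and DESeq2 (-1.42). In fits of only the groups compared the APELA difference at 6 h (0.27) and the APLN difference at 48 h (-0.81) passed, the APELA interaction at 3 h (0.82) did not, and 4 list genes at 0 h and 51 at 6 h were called, against 47 and 11. APLNR was filtered out at 0 h there. DESeq2 called 19 list genes at 3 h, against 12. Without the 3 libraries, APLN differences at 0 h (1.54) and 48 h (-0.96), APLN interactions (-1.72, -1.50 and -2.50), the APLNR interaction at 6 h (0.96) and the APELA difference at 6 h (0.28) passed, and 100, 35, 43 and 94 list genes were called at 0, 3, 6 and 48 h, against 53 at 48 h with all.

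With each library left out in turn, APLN at 0 h was 0.13 to 1.54, APLNR at 0 h -0.93 to -0.54, APLN interactions -1.73 to -0.32, -1.51 to -0.10 and -2.35 to -0.94, and APLNR interactions 0.87 to 1.33 at 3 h and 0.53 to 0.94 at 6 h. List genes called were 32 to 79 at 0 h, the highest without library 1 of WT, and 7 to 8 at 6 h, 7 without KO library 1 or WT library 1 or 2. The causes were not tested.

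Replicate numbers did not pair the libraries (same-number correlations -0.183 to 0.0619). With the number as a replicate block the APLNR difference at 48 h was -2.82 (limma, adjusted p = 5.1e-08) and APELA at 0 h was -1.05 (limma, adjusted p = 5.09e-05). No call of the 3 genes changed. With 3 to 34 reads a library, small changes of APLNR before 48 h were not detectable.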
